A study of Homo sapiens with 12 samples.

Results

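The snoRNA host long noncoding genes are transcribed without a protein product of their own and carry small nucleolar RNAs (snoRNAs) in their introns. Members were the genes of the count table whose symbol was SNHG (small nucleolar RNA host gene) followed by a number, or was GAS5, ZFAS1, DANCR, or EPB41L4A-AS1, with at least 50 counts summed over the 12 libraries. Of 60649 genes in the table, 32 had such a symbol, and 30 of these were kept. SNHG27 and SNHG28 had 0 counts in every library. The rule used symbols and summed counts, and no contrast between groups. All 30 members passed the filter on low counts that left 21114 genes for testing.

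Bulk RNA was sequenced from uterine leiomyosarcoma (uLMS) lines, SK-UT-1B from a primary tumor and SK-LMS-1 from a vulvar metastasis, both with the genotype label WT. Each is 1 established cell line, so a difference between them is a difference between lines and not between primary and metastatic disease. Every group had been cultured for 72 h with the vehicle DMSO or with drug. The drugs were MK-0752, which inhibits the gamma secretase that releases the active part of Notch receptors, gemcitabine, a nucleoside analog, and docetaxel, which stabilizes microtubules. The 6 groups held 2 libraries each: SK-UT-1B with DMSO (library names 4-1 and 4-2), SK-UT-1B with the 3 drugs in combination (3-1 and 3-3), SK-LMS-1 with DMSO in a set numbered 2 (2-1 and 2-3), SK-LMS-1 with DMSO in a set numbered 4 (4-1 and 4-2), SK-LMS-1 with MK-0752 alone (2-2 and 2-3), and SK-LMS-1 with the combination (4-1 and 4-2). Doses were set for each line by growth inhibition, and MK-0752 was given at a lower dose in the combination than alone. The sequenced treatments were ones that had lowered HES1, a Notch target, by qPCR. In SK-UT-1B the DMSO libraries carried the set number 4 and the combination libraries the set number 3, so set and treatment cannot be told apart in that line. Nothing in the sources says that the libraries of a group came from separate cultures, and the p-values measure only the spread between these libraries.

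Libraries held 25250057 to 40709885 counts. Members took 0.119% to 0.141% of them, and 3 counts, used here as the detection floor, corresponded to 0.0777 to 0.123 CPM (counts scaled to a library of 1000000 after TMM adjustment of library sizes). Of the muscle genes, CALD1 stood at 42.8 to 46.7 CPM in SK-UT-1B and 307 to 399 CPM in SK-LMS-1, DES was at 1.37 to 9.76 CPM in SK-UT-1B and 0 in SK-LMS-1, and the smooth muscle myosin gene MYH11 had no more than 5 counts in any library. The 6 epithelial markers summed to 0.292 to 1.14 CPM in SK-UT-1B, the line described as epithelial-like in morphology, and to 169 to 265 CPM in SK-LMS-1. KRT8 was without a count in SK-UT-1B.

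snoRNAs are cut from introns after splicing and, bound in ribonucleoprotein particles, guide the modification of ribosomal and spliceosomal RNA. Box C/D snoRNAs direct ribose methylation by fibrillarin, and box H/ACA snoRNAs direct pseudouridylation by dyskerin. The spliced exons of many hosts are exported, engaged by ribosomes at short reading frames, and removed by nonsense-mediated decay, so the level of a host RNA reflects both its synthesis and its decay. Several hosts, like the ribosomal protein genes, begin transcription at a C followed by a run of pyrimidines. Some host RNAs, GAS5 and DANCR among them, have also been studied for functions of their exons in growth and differentiation.

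GENCODE v44 placed 139 snoRNA entries inside 29 of the 30 members, 110 of the box C/D class, 25 of the box H/ACA class, and 4 small Cajal body RNAs, and 135 of them lay within an intron. SNHG14, the imprinted host on chromosome 15, held 84, and 16 members held 1 each. SNORA16A in SNHG12 and SNORA17B in SNHG7 each had a pair of overlapping entries, so entries outnumber distinct snoRNAs. GAS5 had none in that annotation and 11 in RefSeq. The sequences below are 1 hosted snoRNA for members that set the lines apart or that took many of the counts, as the annotation places them. All lie on the + strand of hg38: SNORA26 in DANCR (chr4:52713249-52713370), SNORD123 in SNHG18 (chr5:9548836-9548905), SNORD48 in SNHG32 (chr6:31835263-31835326), SNORD12 in ZFAS1 (chr20:49280683-49280772), SNORD49A in SNHG29 (chr17:16440036-16440106), SNORD116-1 in SNHG14 (chr15:25051477-25051571), and SNORA73B in SNHG3 (chr1:28508559-28508762). Capitals mark TGATGA and the last CTGA (the letters of boxes C and D) in SNORD genes, and an ACA within 5 bases of the 3′ end in SNORA genes.
SNORA26: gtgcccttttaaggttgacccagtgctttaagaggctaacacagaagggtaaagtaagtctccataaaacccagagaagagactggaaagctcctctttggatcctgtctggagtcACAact
SNORD123: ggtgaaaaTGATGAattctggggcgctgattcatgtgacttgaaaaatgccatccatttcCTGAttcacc
SNORD48: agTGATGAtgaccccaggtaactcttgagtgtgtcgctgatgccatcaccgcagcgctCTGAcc
SNORD12: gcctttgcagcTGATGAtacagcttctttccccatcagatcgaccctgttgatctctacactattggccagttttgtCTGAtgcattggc
SNORD49A: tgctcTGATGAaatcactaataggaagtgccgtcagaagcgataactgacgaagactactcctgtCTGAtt
SNORD116-1: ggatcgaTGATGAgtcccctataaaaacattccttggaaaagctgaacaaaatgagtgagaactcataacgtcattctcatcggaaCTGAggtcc
SNORA73B: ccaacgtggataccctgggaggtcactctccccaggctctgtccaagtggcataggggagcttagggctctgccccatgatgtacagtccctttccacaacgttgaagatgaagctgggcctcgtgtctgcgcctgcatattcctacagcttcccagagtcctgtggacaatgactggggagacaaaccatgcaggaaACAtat
Read on the transcribed strand, the first pair of letters was found in 72.5% of 313 SNORD genes and the second in 82.2% of 214 SNORA genes. SNORA26 and SNORA73B, of the H/ACA class, and SNORD116-1, of the C/D class, came from hosts higher in SK-UT-1B after DMSO, and SNORD123, SNORD48, SNORD12, and SNORD49A, of the C/D class, from hosts higher in SK-LMS-1.

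RefSeq start sites (GRCh38.p14) were matched for 26 members. The first transcribed base was a C followed by at least 4 pyrimidines (C or T, transcribed strand only) in 7 of these (26.9%), against 4.07% of 35116 promoters. The 7 were SNHG4, SNHG5, SNHG12, SNHG18, SNHG19, SNHG32, and ZFAS1. The class rests on a single annotated first base, so another start could change it. The start windows of GAS5 (chr1:173869026-173869055, − strand) and SNHG14 (chr15:24823598-24823627, + strand) lay outside the spans GENCODE gives these members. In DANCR the annotated first base was a G, with pyrimidines directly after it. Windows of 30 bases, with 10 before the start, are shown for 3 of them and for DANCR, whose annotated start lacked these letters, since these 4 members set the lines apart: SNHG4 (chr5:139274091-139274120), SNHG32 (chr6:31834906-31834935), ZFAS1 (chr20:49278632-49278661), and DANCR (chr4:52712384-52712413), all on the + strand. Capitals mark the pyrimidine run from the first transcribed base.
SNHG4: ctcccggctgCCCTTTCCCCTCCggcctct
SNHG32: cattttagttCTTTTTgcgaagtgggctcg
ZFAS1: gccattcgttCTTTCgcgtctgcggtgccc
DANCR: tgcgcgccccgcccttgcccagagtcttcc

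Few members carried most of the signal. SNHG29 had a mean of 464 CPM over the 12 libraries and 35.4% of all member counts, SNHG16 had 298 CPM and 22.6%, SNHG14 had 129 CPM and 9.89%, and GAS5 had 66.3 CPM and 5.09%. In all, 3 members averaged at least 100 CPM, 12 at least 20 CPM, 26 at least 1 CPM, and 4 (SNHG9, SNHG21, SNHG22, and SNHG25) less than 1 CPM. Summed over the members, the level was 1091 to 1193 CPM in the 4 SK-UT-1B libraries and 1312 to 1435 CPM in the 8 SK-LMS-1 libraries, without overlap. That separation came with the TMM adjustment, with factors of 1.089 to 1.183 in SK-UT-1B and 0.9192 to 0.9637 in SK-LMS-1. As a share of unadjusted counts the lines overlapped, at 0.119% to 0.141% in SK-UT-1B and 0.126% to 0.137% in SK-LMS-1. SNHG29 and SNHG16 together made up 40.5% to 52.1% of member counts in SK-UT-1B and 60.7% to 66.4% in SK-LMS-1. Per kilobase of exon, the order after DMSO was SNHG16 (34.7 CPM per kb), SNHG29 (29.3), SNHG19 (15.1), SNHG3 (13.5), and SNHG1 (13.2) in SK-UT-1B, and SNHG16 (66.1), SNHG29 (57.1), SNHG32 (23.6), SNHG6 (18), and GAS5 (14.7) in SK-LMS-1. These are single values from group means. Length is the merged exons of all GENCODE v44 transcripts of a gene, such as 614 bases for SNHG19 and 10179 for DANCR. Which transcripts the cells expressed is not known, so this is not an order of RNA molecules. SNHG14, whose annotated exons covered 122609 bases, was at only 1.74 CPM per kb in SK-UT-1B and 0.636 in SK-LMS-1.

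**Figure D1:**
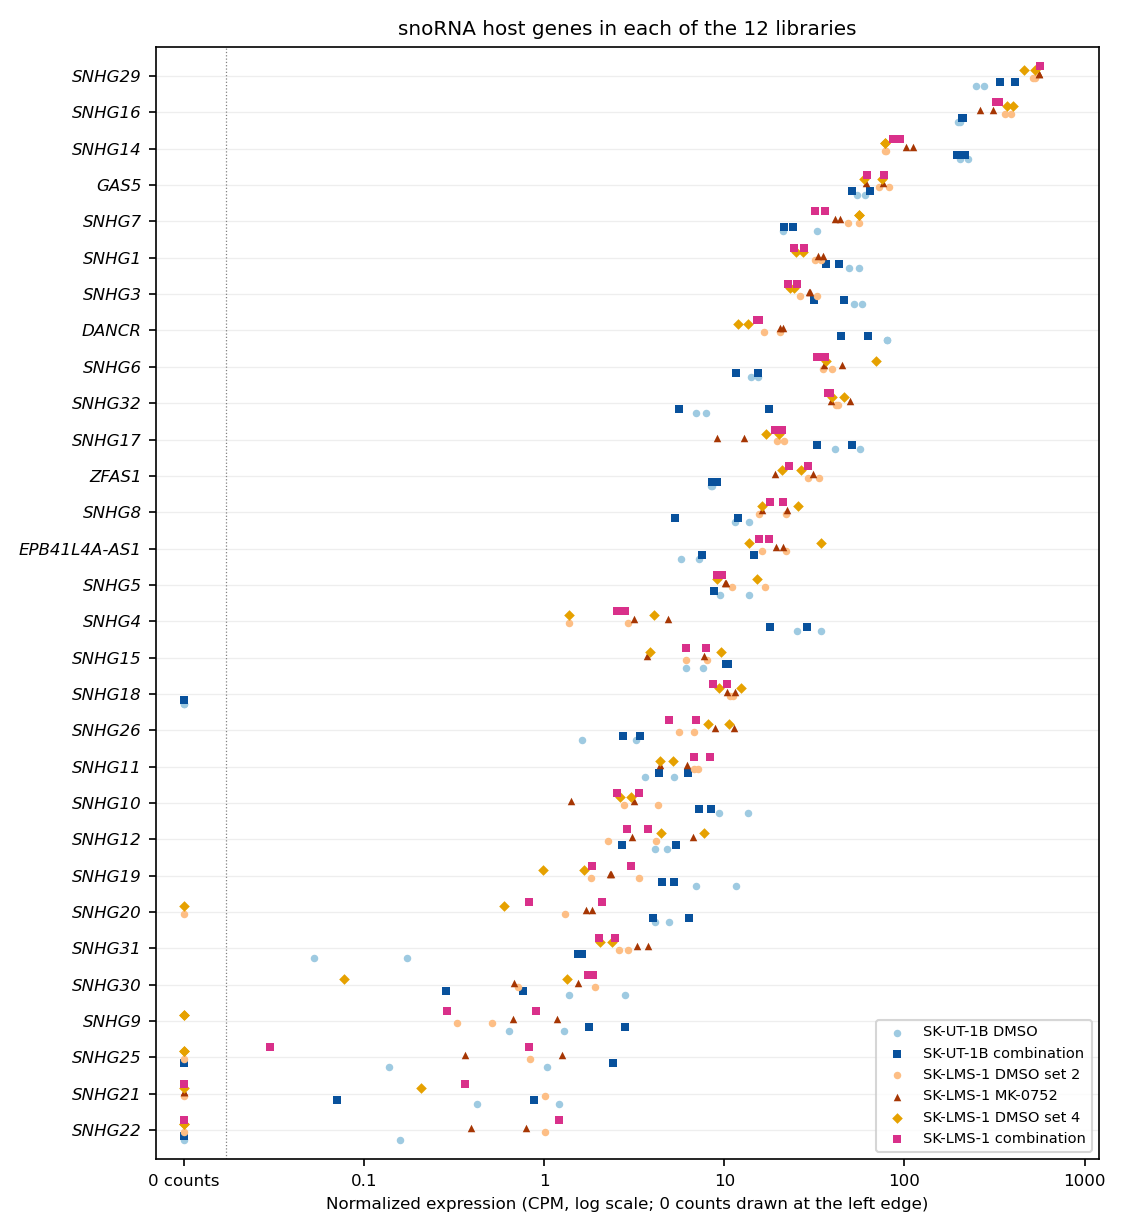
Level of each of the 30 members (rows) in each of the 12 libraries (points, log axis, CPM), with the 6 groups distinguished by color and shape and 0 counts drawn at the left edge. SNHG29 is the highest member in every library, SNHG16 and SNHG14 follow at like levels in SK-UT-1B and with SNHG16 well ahead in SK-LMS-1, SNHG18 is at 0 in all 4 SK-UT-1B libraries, and the 4 members under 1 CPM scatter widely within groups.

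Libraries of a group agreed closely for the abundant members. Over the 12 members at 20 CPM or more and the 6 groups, the higher library exceeded the lower by a median factor of 1.12, and 5 of 72 such ratios were over 1.5. The largest, 3.17, was SNHG32 in the SK-UT-1B combination libraries. At the other end, a library with 0 counts stood beside one with at least 20 counts in 7 cases among SNHG20, SNHG21, SNHG22, and SNHG25, and the second library reached 88 counts (SNHG25 in the SK-UT-1B combination group). The size of a fitted change is not quoted for these members, though SNHG20 is plotted. Annotated exons of 17 members overlapped a gene on the other strand and those of 8 a gene on the same strand. The libraries were strand-specific, but the strand setting of the counts is not given in the sources used here, so values of members with a large overlap are uncertain: 58.9% of SNHG6 exon bases (with MCMDC2), 51.2% of EPB41L4A-AS1 (with EPB41L4A), 37.6% of SNHG8 (with PRSS12), 30.3% of SNHG7 (with DIPK1B), and 28.5% of SNHG16, all on the other strand, and 14% of SNHG4 (with MATR3) and 23.2% of SNHG32 on the same strand.

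The first question was whether the drug combination altered the hosts in SK-UT-1B. No member was called up- or downregulated there by edgeR after correction over all genes, while DESeq2 called SNHG31 and SNHG29. SNHG29 and SNHG31 were fitted higher and DANCR lower with intervals that left 0, and the fitted change of GAS5 was near 0. SNHG29 (chr17:16438767-16480249, + strand), host of SNORD49A, stood at 276 and 249 CPM with DMSO and at 409 and 341 CPM with the combination. Both treated libraries lay above both controls, and the log2 fold change (log2FC) was 0.52 (95% interval 0.22 to 0.81, edgeR adjusted p = 0.111). DANCR (chr4:52712325-52723623, + strand), named for antagonizing differentiation, was at 79.5 and 79.9 CPM with DMSO and 44.2 and 62.7 CPM with the combination, again without overlap (log2FC −0.58, interval −1.09 to −0.06, edgeR adjusted p = 0.384). SNHG31 (chr2:214810181-214963575, + strand), a low host of an H/ACA snoRNA, had 5 and 2 counts with DMSO and 56 and 46 counts with the combination. These counts correspond to 0.173 and 0.053 CPM against 1.53 and 1.63 CPM (log2FC 3.78, interval 1.01 to 6.56, edgeR adjusted p = 0.242).

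GAS5 (chr1:173858559-173868882, − strand), named as a transcript that accumulates in growth-arrested cells, was at 54.3 and 60.7 CPM with DMSO and 64.5 and 51.3 CPM with the combination. The groups overlapped, and the log2FC was 0.01 with an interval of −0.42 to 0.45. ZFAS1 (chr20:49278178-49299600, + strand), antisense to the start of ZNFX1, was at 8.48 and 8.59 CPM with DMSO and 8.5 and 9.16 CPM with the combination. EPB41L4A-AS1 (chr5:112160526-112164818, + strand), antisense to EPB41L4A, was at 5.71 and 7.19 CPM with DMSO and 14.7 and 7.56 CPM with the combination, where library 3-1 stood well above the other (log2FC 0.79, interval −0.1 to 1.67). SNHG32, named after its values were seen, split in the same way, with 7.86 and 7 CPM against 17.8 CPM in library 3-1 and 5.61 CPM in library 3-3. SNHG16 was at 203 and 198 CPM with DMSO and 212 and 208 CPM with the combination, SNHG14 at 224 and 203 against 195 and 218 CPM, and SNHG7 at 32.6 and 21.1 against 21.4 and 23.9 CPM.

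By count, 0 of 30 members passed edgeR's quasi-likelihood test in SK-UT-1B at an adjusted p under 0.05, where 0.715% of all genes tested did, and 3 had an unadjusted p under 0.05 (10.5% of all genes). DESeq2 called 2 members, SNHG31 (adjusted p = 0.00135) and SNHG29 (adjusted p = 0.00452). Without combination library 3-3, edgeR called SNHG29 (log2FC 0.64, adjusted p = 0.00232) and SNHG32 (log2FC 1.26, adjusted p = 0.00233), each then resting on a single treated library. The treated libraries lay wholly above DMSO for 6 members and wholly below for 7 (16.7% and 15.4% of all genes). The median log2FC over members was −0.08, against 0 over all genes.

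MK-0752 alone was compared with the DMSO libraries of the same set in SK-LMS-1. No member passed edgeR's test, while DESeq2 called SNHG16 alone. The fitted shifts of SNHG17, SNHG14, and SNHG16 were the ones whose intervals left 0. SNHG17 (chr20:38419638-38435409, − strand), host of H/ACA snoRNAs, was at 19.6 and 21.5 CPM with DMSO and 12.8 and 9.16 CPM with MK-0752 (log2FC −0.9, interval −1.53 to −0.27, edgeR adjusted p = 0.407). SNHG14 (chr15:24978583-25420336, + strand), host of the SNORD116 cluster, was at 79 and 78 CPM with DMSO and 112 and 102 CPM with MK-0752 (log2FC 0.45, interval 0.12 to 0.78, edgeR adjusted p = 0.464). SNHG16 (chr17:76557727-76670985, + strand), host of C/D snoRNAs, was at 391 and 363 CPM against 309 and 263 CPM (log2FC −0.4, interval −0.69 to −0.1, edgeR adjusted p = 0.464). In each of these members the treated and control libraries did not overlap.

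The intervals of the other members shown in full included 0. GAS5 was at 72.5 and 81.7 CPM with DMSO and 75.7 and 61 CPM with MK-0752 (log2FC −0.17, interval −0.61 to 0.26). SNHG29 was at 519 and 533 CPM against 562 and 559 CPM. DANCR was at 20.4 and 16.7 against 21.1 and 20.4 CPM, and ZFAS1 at 29.2 and 33.7 against 31 and 19.1 CPM. Both treated libraries of SNHG29 lay slightly above the controls, and those of GAS5 and ZFAS1 overlapped them. EPB41L4A-AS1 was at 16.1 and 22.1 against 19.3 and 21.2 CPM, and SNHG7 at 55.9 and 48.9 against 43.8 and 41 CPM. Of the 30 members, 0 passed edgeR's test, against 0.365% of all genes, and 3 had an unadjusted p under 0.05 (6.41% of all genes), while DESeq2 called SNHG16 alone (adjusted p = 0.0468). The treated libraries lay wholly above the controls for 7 members and wholly below for 5 (16.9% and 17.5% of all genes), and the median log2FC was 0.04, against 0 over all genes. In the same comparison the proliferation marker MKI67 fell (log2FC −0.91, SE 0.14, edgeR adjusted p = 0.00488), and its part in the members' values was not tested.

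The combination in SK-LMS-1 was compared with the DMSO libraries of its own set. Again no member passed edgeR's test, and the intervals that left 0 belonged to SNHG7, SNHG6, and SNHG9. SNHG7 (chr9:136721366-136728184, − strand), host of H/ACA snoRNAs, was at 55.9 and 56 CPM with DMSO and 31.8 and 36.3 CPM with the combination, without overlap (log2FC −0.72, interval −1.23 to −0.21, edgeR adjusted p = 0.907). SNHG6 (chr8:66920561-66926398, − strand), host of 1 C/D snoRNA, was at 69.5 and 36.9 CPM with DMSO and 36.3 and 32.5 CPM with the combination, and its controls spread more than the shift (log2FC −0.63, interval −1.23 to −0.03, edgeR adjusted p = 0.907). SNHG9, a short host near the floor, had 0 and 0 counts with DMSO and 30 and 7 counts with the combination.

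GAS5 was at 59.4 and 75.5 CPM with DMSO and 77.2 and 62.2 CPM with the combination (log2FC 0.05, interval −0.39 to 0.48). DANCR was at 11.9 and 13.6 against 15.6 and 15.1 CPM, and ZFAS1 at 20.9 and 26.5 against 29.3 and 23 CPM. The DANCR libraries did not overlap and those of GAS5 and ZFAS1 did. EPB41L4A-AS1 was at 34.2 and 13.7 against 17.6 and 15.5 CPM, with the widest control pair of these members. SNHG29 was at 461 and 529 against 568 and 565 CPM, SNHG16 at 371 and 402 against 333 and 322 CPM, and SNHG14 at 77.5 and 77.5 against 94.7 and 86 CPM. By count, 0 of 30 members passed edgeR's test, against 0.0237% of all genes, 3 had an unadjusted p under 0.05 (4.33% of all genes), and DESeq2 called 0. The combination lay wholly above DMSO for 9 members and wholly below for 6 (21.0% and 11.4% of all genes). The median log2FC was 0.05, against 0.03 over all genes.

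**Figure D2:**
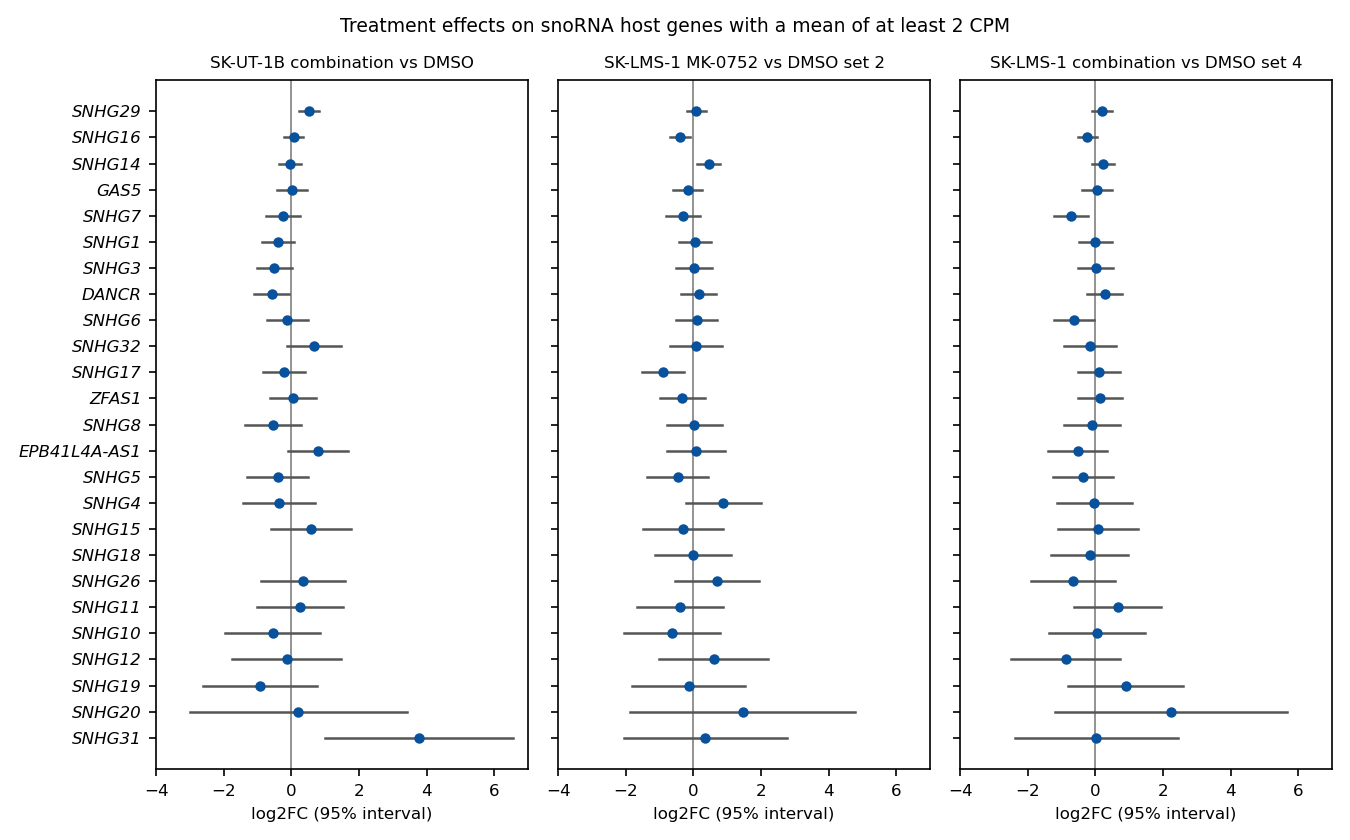
Fitted log2FC with its 95% interval for the 25 members averaging at least 2 CPM, in 3 panels (combination against DMSO in SK-UT-1B, MK-0752 against DMSO in SK-LMS-1, combination against DMSO in SK-LMS-1), with the vertical line at no change. Intervals are narrow for SNHG29, SNHG16, and SNHG14 and wide for members of a few CPM, and SNHG18 is left out of the first panel because it had 0 counts in SK-UT-1B.

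How large a change these libraries could have shown is given by the intervals. For the 12 members at 20 CPM or more the median half-width was 0.51 on the log2 scale in SK-UT-1B with the combination, 0.51 in SK-LMS-1 with MK-0752, and 0.52 in SK-LMS-1 with the combination. For the other 18 members it was 1.64, 1.51, and 1.52. Intervals lay wholly between −1 and 1 for 9, 13, and 11 of the 30 members. The remaining intervals reached past −1 or 1.

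Whether the combination acted differently on the hosts of the lines was tested directly as the SK-UT-1B effect minus the SK-LMS-1 effect. No member passed (0 of 30, against 0.232% of all genes), and 4 had an unadjusted p under 0.05 (7.67% of all genes), while DESeq2 called SNHG31 (adjusted p = 0.0464). The difference was 3.76 for SNHG31, which went from 5 and 2 to 56 and 46 counts in SK-UT-1B and lay between 2.01 and 2.46 CPM in the matching SK-LMS-1 libraries (edgeR adjusted p = 0.648). For DANCR it was −0.84 (interval −1.58 to −0.11, edgeR adjusted p = 0.603), and for EPB41L4A-AS1 1.32 (interval 0.08 to 2.56, edgeR adjusted p = 0.639). The 4th was SNHG22, with 0 counts in several of these libraries. Without SK-UT-1B combination library 3-3, edgeR called SNHG32 (difference 1.43, adjusted p = 0.0198). MK-0752 alone and the combination were given at different doses of MK-0752, and their effects in SK-LMS-1 were set side by side. For that difference 0 members passed edgeR's test (0.0379% of all genes), 1 member had an unadjusted p under 0.05 (5.18% of all genes), SNHG17 (difference −1.0, interval −1.89 to −0.12, adjusted p = 0.911), and DESeq2 called 0.

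The lines themselves differed in most hosts after DMSO and in 13 of 30 after the combination, by edgeR's test. After DMSO, with the SK-LMS-1 sets averaged, SNHG18, SNHG31, SNHG32, EPB41L4A-AS1, and ZFAS1 led the members higher in SK-LMS-1, and SNHG4, DANCR, and SNHG19 those lower, beside SNHG9 and SNHG20, which had libraries at 0. By edgeR's test 10 members were higher and 10 lower, 20 of 30 (66.7%), where 41.0% of all genes passed (21.5% higher and 19.5% lower). With the added limit of an absolute log2FC of at least 1, 17 members counted as differentially expressed, 8 higher and 9 lower, against 31.1% of all genes. The SK-LMS-1 libraries lay wholly above those of SK-UT-1B for 11 members and wholly below for 10 (25.3% and 26.6% of all genes), and the median log2FC was −0.01, against 0 over all genes. In bulk RNA, fewer cells expressing a gene and less RNA per cell cannot be told apart.

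SNHG18 (chr5:9546170-9550725, + strand), host of SNORD123, had 0 counts in each SK-UT-1B library. In SK-LMS-1 it was at 10.8 and 11.2 CPM in DMSO set 2, 12.3 and 9.28 CPM in set 4, 10.3 and 11.4 CPM with MK-0752, and 10.4 and 8.7 CPM with the combination. Against the floor of 3 counts per library the SK-LMS-1 level was at least 119-fold higher with DMSO (edgeR adjusted p = 6.52e-08) and at least 101-fold higher with the combination. Every SK-LMS-1 library expressed it at a like level, whatever the treatment.

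SNHG32 (chr6:31834608-31839766, + strand), host of SNORD48, was at 7.86 and 7 CPM in SK-UT-1B after DMSO. It reached 42.5 and 41.6 CPM in SK-LMS-1 set 2 and 46.4 and 39.5 CPM in set 4 (log2FC 2.52, SE 0.36, edgeR adjusted p = 2.20e-05). ZFAS1, host of SNORD12 and its relatives, was at 8.48 and 8.59 CPM in SK-UT-1B and at 20.9 to 33.7 CPM in the 4 SK-LMS-1 controls (log2FC 1.68, SE 0.3, edgeR adjusted p = 0.000110). EPB41L4A-AS1 was at 5.71 and 7.19 CPM in SK-UT-1B and 21.5 ± 9.19 CPM in SK-LMS-1 (SD, n = 4), where library 4-1 alone stood at 34.2 CPM (log2FC 1.73, SE 0.39, edgeR adjusted p = 0.00130). All of these lay higher in every SK-LMS-1 control than in either SK-UT-1B control. SNHG31 had a mean of 2.49 CPM in SK-LMS-1 and 0.113 CPM in SK-UT-1B (log2FC 4.43, SE 1.3, edgeR adjusted p = 0.00947). That call rests on 7 counts in SK-UT-1B and was lost without DMSO library 4-2 of that line (log2FC 3.81, adjusted p = 0.122).

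SNHG29 and SNHG16, the most abundant hosts, were higher in SK-LMS-1 by smaller log2FC than the members above, with small errors. SNHG29 was at 276 and 249 CPM in SK-UT-1B and 511 ± 33.3 CPM (SD, n = 4) in SK-LMS-1 after DMSO (log2FC 0.96, SE 0.13, edgeR adjusted p = 3.25e-06). SNHG16 was at 203 and 198 CPM against 382 ± 18 CPM (SD, n = 4), with a log2FC of 0.93 (SE 0.13, edgeR adjusted p = 5.28e-06). Neither host overlapped between the lines. SNHG6 was at 14.1 and 15.3 CPM in SK-UT-1B and 39.7, 35.4, 69.5, and 36.9 CPM in SK-LMS-1 (log2FC 1.61, edgeR adjusted p = 6.01e-05). SNHG7 was at 32.6 and 21.1 CPM against 54.2 ± 3.53 CPM (SD, n = 4), and SNHG26 at 3.22 and 1.62 CPM against 7.78 ± 2.16 CPM (SD, n = 4). GAS5 was at 54.3 and 60.7 CPM in SK-UT-1B and 72.3 ± 9.4 CPM (SD, n = 4) in SK-LMS-1, with overlap at the edge of the ranges, and did not pass (log2FC 0.33, interval −0.05 to 0.71, edgeR adjusted p = 0.162). Across all 12 libraries the highest GAS5 value was 1.59 times the lowest.

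In the other direction, DANCR, host of SNORA26, was at 79.5 and 79.9 CPM in SK-UT-1B after DMSO. SK-LMS-1 held 20.4 and 16.7 CPM in set 2 and 11.9 and 13.6 CPM in set 4 (log2FC −2.37, SE 0.2, edgeR adjusted p = 9.85e-09). SNHG4 (chr5:139274102-139284899, + strand), host of box H/ACA snoRNAs and sharing its locus with MATR3, was at 34.5 and 25.3 CPM in SK-UT-1B and 2.92, 1.38, 1.38, and 4.09 CPM in SK-LMS-1 (log2FC −3.61, SE 0.44, edgeR adjusted p = 1.22e-06). Both hosts were lower in every SK-LMS-1 library of any treatment than in any SK-UT-1B library. SNHG14 was at 224 and 203 CPM against 78 ± 0.7 CPM (SD, n = 4), with a log2FC of −1.45 (SE 0.13, edgeR adjusted p = 1.92e-08). SNHG17 was at 56.8 and 41.2 CPM against 19.6, 21.5, 20.2, and 17 CPM (log2FC −1.33, edgeR adjusted p = 0.000192). SNHG19, the short host on chromosome 16, was at 6.96 and 11.6 CPM against 3.35, 1.81, 1.66, and 0.985 CPM (log2FC −2.32, SE 0.67, edgeR adjusted p = 0.00787). SNHG3, host of SNORA73B, was at 52.7 and 57.9 CPM against 26.3, 32.5, 23.2, and 24.3 CPM (log2FC −1.07, edgeR adjusted p = 0.000318). SNHG1, host of 7 snoRNAs, was at 55.6 and 49.4 CPM against 29.6 ± 4.26 CPM (SD, n = 4, log2FC −0.84, edgeR adjusted p = 0.00150). SNHG10 was also lower (log2FC −1.86, edgeR adjusted p = 0.0110). SNHG20 had 4.12 and 4.91 CPM in SK-UT-1B and 0, 1.3, 0, and 0.596 CPM in SK-LMS-1 (edgeR adjusted p = 0.0494), and SNHG9 had 1.28 and 0.637 CPM against 0.516, 0.326, 0, and 0 CPM (edgeR adjusted p = 0.0436). The SNHG9 means were 0.959 and 0.21 CPM, and with all 4 SK-LMS-1 DMSO libraries as 1 group it was not called (log2FC −2.16, edgeR adjusted p = 0.347).

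**Figure D3:**
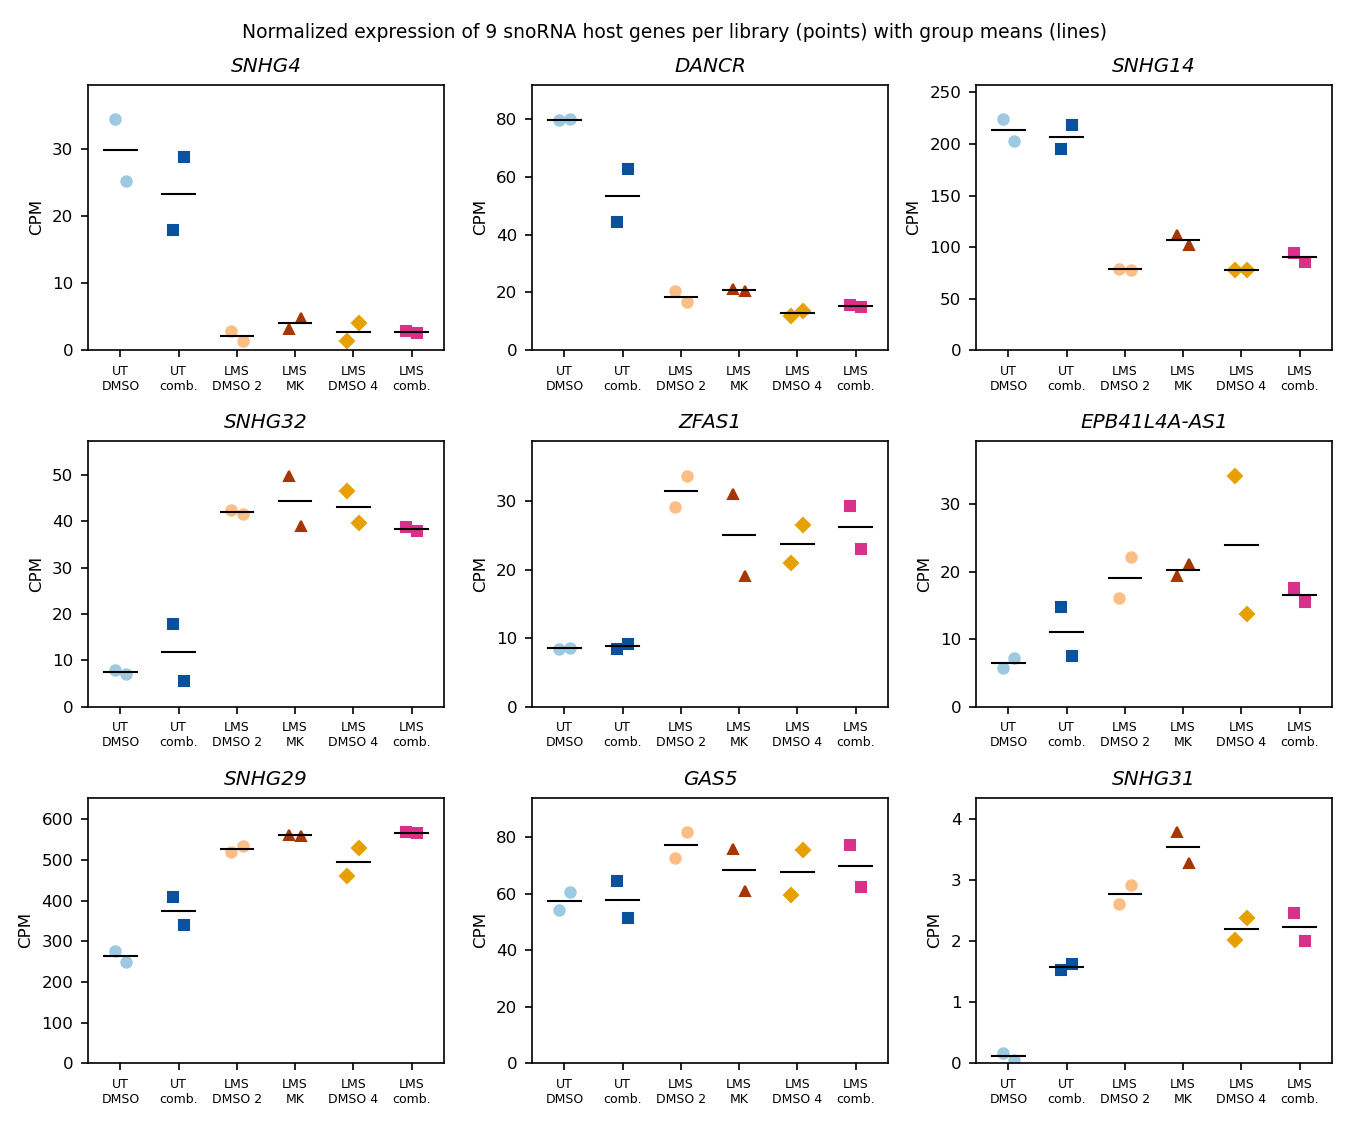
Level (CPM, linear axis from 0) of 9 members in each library (points), with a line at each group mean and the 6 groups along the horizontal axis. SNHG4, DANCR, and SNHG14 are higher in SK-UT-1B, SNHG32, ZFAS1, and SNHG29 are higher in SK-LMS-1, GAS5 differs little between the lines, and EPB41L4A-AS1 and SNHG31 are lowest in SK-UT-1B after DMSO.

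Several of these calls depended on single libraries. SNHG7 and SNHG19 were not called without SK-UT-1B DMSO library 4-2 (edgeR adjusted p = 0.0629 and 0.175), nor SNHG10 without library 4-1 of that group (edgeR adjusted p = 0.164). SNHG26 (edgeR adjusted p = 0.0224 with all libraries) was lost in 6 of 12 omissions, with an adjusted p of up to 0.275. These were the omissions of SK-LMS-1 DMSO library 2-3, SK-LMS-1 DMSO library 4-1, SK-LMS-1 combination library 4-1, SK-LMS-1 combination library 4-2, SK-LMS-1 MK-0752 library 2-2, and SK-UT-1B DMSO library 4-2. SNHG9 was lost in 10 of 12, with an adjusted p of up to 0.150, and kept only without SK-LMS-1 combination library 4-2 or SK-LMS-1 MK-0752 library 2-2. SNHG20 passed edgeR's test in all 12 omissions and missed it when only the libraries of the comparison were fitted (edgeR adjusted p = 0.138), with all 4 SK-LMS-1 DMSO libraries as 1 group (edgeR adjusted p = 0.0512), and with a replicate block (edgeR adjusted p = 0.0534).

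The same contrast after the combination uses libraries that the first did not, though of different drug doses in each line. Both contrasts come from 1 fit of all 12 libraries and share its estimate of spread, so they are not independent. Of 30 members 13 passed edgeR's test (43.3%), 7 higher and 6 lower in SK-LMS-1, where 32.9% of all genes passed (19.3% higher and 13.6% lower), and 9 had an absolute log2FC of at least 1 (25.4% of all genes). The median log2FC was 0.19, against 0.02 over all genes. SNHG32 was at 17.8 and 5.61 CPM in SK-UT-1B and 38.7 and 37.8 CPM in SK-LMS-1 (log2FC 1.7, edgeR adjusted p = 0.00177). ZFAS1 was at 8.5 and 9.16 against 29.3 and 23 CPM (log2FC 1.57, edgeR adjusted p = 0.000690), and SNHG6 at 11.6 and 15.4 against 36.3 and 32.5 CPM (log2FC 1.35, edgeR adjusted p = 0.00112). Each kept its direction from the DMSO libraries. SNHG8, host of an H/ACA snoRNA, was at 11.9 and 5.32 against 21.2 and 17.9 CPM (log2FC 1.18, edgeR adjusted p = 0.0278). SNHG29 (log2FC 0.59, edgeR adjusted p = 0.00221) and SNHG16 (log2FC 0.64, edgeR adjusted p = 0.00120) passed with smaller differences than after DMSO.

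Among the members lower in SK-LMS-1 after the combination, SNHG4 was at 18 and 28.8 CPM in SK-UT-1B and 2.82 and 2.54 CPM in SK-LMS-1 (log2FC −3.12, edgeR adjusted p = 0.000174). DANCR was at 44.2 and 62.7 against 15.6 and 15.1 CPM (log2FC −1.8, edgeR adjusted p = 1.08e-05). SNHG14 was at 195 and 218 against 94.7 and 86 CPM (log2FC −1.19, edgeR adjusted p = 5.37e-06). These had the lowest log2FC of the members that passed. SNHG17 was at 32.6 and 50.9 against 20.9 and 19 CPM (log2FC −1.06, edgeR adjusted p = 0.00876), and SNHG3 at 31.5 and 46.4 against 22.5 and 25.4 CPM (log2FC −0.7, edgeR adjusted p = 0.0364). SNHG17 was not called without SK-LMS-1 combination library 4-2 (edgeR adjusted p = 0.0788) or SK-UT-1B combination library 3-3 (edgeR adjusted p = 0.173), and SNHG8 not without SK-LMS-1 combination library 4-1 (edgeR adjusted p = 0.154) or SK-UT-1B combination library 3-3 (edgeR adjusted p = 0.317). SNHG3 was lost in 8 of 12 omissions, with an adjusted p of up to 0.474, and kept only without SK-LMS-1 DMSO library 4-1, SK-LMS-1 DMSO library 4-2, SK-UT-1B DMSO library 4-1, or SK-UT-1B combination library 3-1. SNHG1 (edgeR adjusted p = 0.0458 with all libraries) was lost in each of the 12, with an adjusted p of up to 0.406.

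Set side by side, 12 members passed in both conditions, and all 12 had the same direction: SNHG6, SNHG16, SNHG18, SNHG29, SNHG32, and ZFAS1 were higher in SK-LMS-1, and SNHG1, SNHG3, SNHG4, SNHG14, SNHG17, and DANCR were lower. These made up 60.0% of the members called after DMSO and 92.3% of those called after the combination. Over all genes 29.8% passed in both, 72.7% of the genes called after DMSO and 90.6% of those called after the combination, and 6287 of these 6288 genes had the same direction. Of the 12 members, SNHG32, SNHG1, and SNHG3 were not called after the combination when only the libraries of that comparison were fitted (edgeR adjusted p = 0.0626, 0.0698, and 0.0883), and SNHG1 and SNHG3 not with a replicate block. After DMSO alone 8 members passed (SNHG7, SNHG9, SNHG10, SNHG19, SNHG20, SNHG26, SNHG31, and EPB41L4A-AS1), and after the combination alone 1 (SNHG8). For none of these 9 members was the combination effect called different between the lines by edgeR, and DESeq2 called SNHG31 (both given above). The remaining 9 (GAS5, SNHG5, SNHG11, SNHG12, SNHG15, SNHG21, SNHG22, SNHG25, and SNHG30) passed in neither.

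The remaining libraries of the members that set the lines apart complete their values. With MK-0752 in SK-LMS-1, SNHG4 was at 3.17 and 4.86 CPM, SNHG32 at 49.8 and 39 CPM, SNHG31 at 3.79 and 3.29 CPM, SNHG3 at 29.9 and 29.4 CPM, and SNHG6 at 44.8 and 35.7 CPM. SNHG19 was at 4.51 and 5.25 CPM in SK-UT-1B with the combination, 2.33 and 2.36 CPM in SK-LMS-1 with MK-0752, and 3.03 and 1.85 CPM in SK-LMS-1 with the combination. SNHG20, in the same order, was at 6.39 and 4.01, 1.85 and 1.71, and 2.1 and 0.821 CPM. All SK-UT-1B libraries of SNHG19 and SNHG20 lay above every SK-LMS-1 library. SNHG9 was at 1.78 and 2.8 CPM in SK-UT-1B with the combination, 0.673 and 1.17 CPM in SK-LMS-1 with MK-0752, and 0.901 and 0.287 CPM with the combination there. SNHG31 was at 2.61 and 2.93 CPM in DMSO set 2 of SK-LMS-1 and 2.03 and 2.38 CPM in set 4. With the combination in SK-LMS-1 it was at 2.46 and 2.01 CPM. SNHG8 with DMSO was at 13.7 and 11.5 CPM in SK-UT-1B, 15.5 and 22.1 CPM in SK-LMS-1 set 2, and 16.2 and 25.7 CPM in set 4, and at 22.2 and 16.2 CPM with MK-0752. For SNHG9 the lines overlapped across treatments, at the lower SK-UT-1B control, and for SNHG8 they did not.

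**Figure D4:**
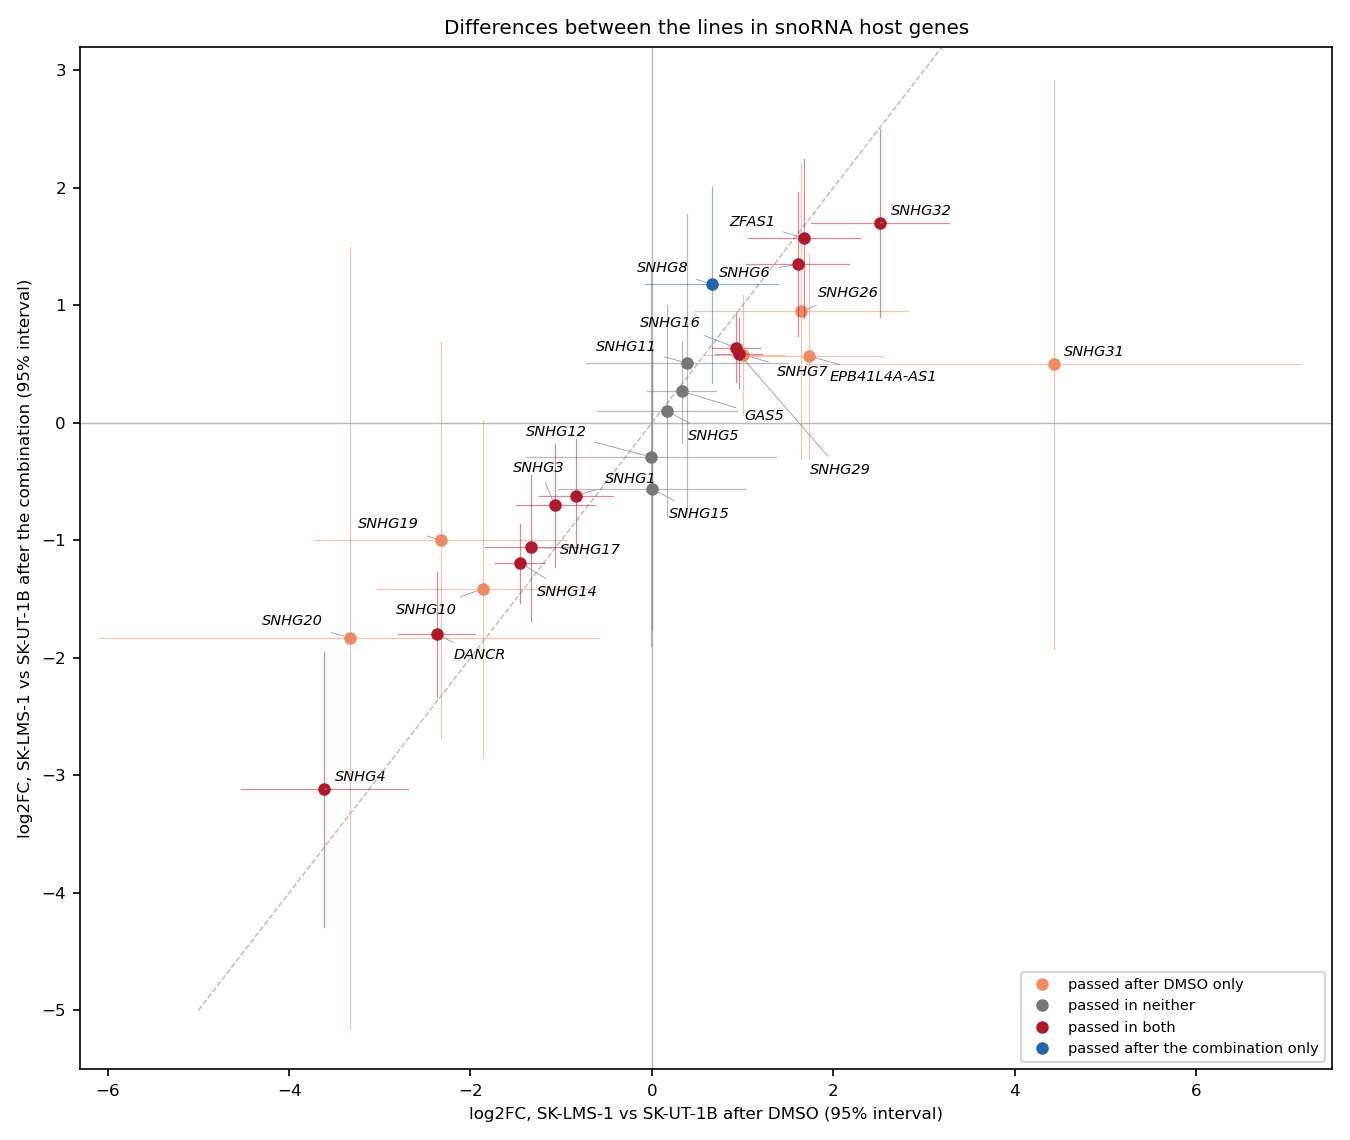
Difference between the lines (log2FC, SK-LMS-1 against SK-UT-1B) after DMSO (horizontal) and after the combination (vertical) for members averaging at least 2 CPM, except SNHG18, with 95% intervals, colors for the condition in which edgeR's test was passed, and a dashed line where both differences are equal. SNHG4, DANCR, and SNHG14 lie to the lower left, SNHG32, ZFAS1, and SNHG6 to the upper right, SNHG31 falls well below the dashed line, and SNHG20 has the widest intervals on both axes.

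Grouped by what they carry, 12 members hosted only box C/D snoRNAs, and in SK-LMS-1 7 of these stood higher and 3 lower after DMSO (6 and 2 after the combination). Of the 11 that hosted only box H/ACA snoRNAs, 3 were higher and 5 lower (1 and 4 after the combination), and of the 6 that hosted both kinds or a small Cajal body RNA, 0 were higher and 2 lower (0 and 0). Over all genes 21.5% were higher and 19.5% lower after DMSO (19.3% and 13.6% after the combination). The classes were not tested against each other or against all genes. Of the 7 members with an annotated start at a C and 4 pyrimidines, 3 were higher and 2 lower after DMSO. Of the 19 with another annotated start, GAS5 and SNHG14 among them, 6 were higher and 7 lower. That split carries the limits of the annotated starts given above.

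The DMSO libraries of SK-LMS-1 were also compared between sets, as a measure of how far hosts vary without drug. By edgeR 0 of 30 members passed (0.00% of all genes), 2 had an unadjusted p under 0.05 (5.67% of all genes), DANCR (log2FC −0.54, interval −1.06 to −0.02, adjusted p = 0.794) and SNHG9, and DESeq2 called 0. The median log2FC over members was −0.2, against 0 over all genes.

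Few of the snoRNAs themselves were counted. All 139 entries had a row in the table, but 15 had at least 1 count and 7 at least 50. SNORA73B in SNHG3, with the sequence given above, was the most counted at 6182 counts over the 12 libraries. It stood at 10.9 and 12.5 CPM in SK-UT-1B with DMSO and 6.26 and 19.5 CPM with the combination, at 6.59 and 18.5 CPM in SK-LMS-1 DMSO set 2, 22 and 17.3 CPM in set 4, 23.1 and 23.8 CPM with MK-0752, and 20.9 and 11.3 CPM with the combination. Its libraries varied widely within a group, and it passed edgeR's test in none of the 8 comparisons, while SNHG3 was higher in SK-UT-1B. Whether host and snoRNA levels are linked was not tested.

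The other genes of the pathway were read from lists. In SK-LMS-1, of 39 protein-coding snoRNA hosts, 19 were higher and 7 lower after DMSO (17 and 5 after the combination), with a median log2FC of 0.35 in both. Over all genes 21.5% were higher and 19.5% lower after DMSO (19.3% and 13.6% after the combination). RPL10, a ribosomal protein gene that hosts an H/ACA snoRNA, was at 835 and 751 CPM in SK-UT-1B and 3780, 3880, 3300, and 3530 CPM in SK-LMS-1 (log2FC 2.19, SE 0.12, edgeR adjusted p = 9.26e-12). EIF4A2, a translation initiation helicase gene, was higher by 1.79 (SE 0.15, edgeR adjusted p = 4.17e-09). It was also the only gene of these lists to rise with the combination in SK-UT-1B, from 128 and 146 to 231 and 207 CPM (log2FC 0.68, SE 0.15, edgeR adjusted p = 0.0454). Of 79 cytosolic ribosomal protein genes, 45 were higher and 2 lower after DMSO (43 and 0 after the combination), with a median log2FC of 0.48, and RPS12 was higher by 1.45 (SE 0.14, edgeR adjusted p = 3.49e-08). These lists share genes, RPL10, RPS12, RPSA, and RPL21 among them, so their counts are not separate observations.

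In the lists of factors that build snoRNA particles or degrade host exons, more genes were lower than higher in SK-LMS-1. Over all genes 19.5% were lower after DMSO and 13.6% after the combination, and the lists were not tested against them. Of the 4 box C/D particle proteins 3 were lower after DMSO in SK-LMS-1, FBL (fibrillarin, the methyltransferase) with a log2FC of −1.11 (SE 0.14, edgeR adjusted p = 2.97e-06), with NOP58 and SNU13 (3 of 4 after the combination). Of the 4 box H/ACA proteins 2 were lower, DKC1 (dyskerin, the pseudouridine synthase) with −0.59 (SE 0.16, edgeR adjusted p = 0.00488) and GAR1 with −1.36 (1 of 4 after the combination). Of 13 assembly factors 6 were lower and 1, ZNHIT6, higher (3 and 1 after the combination), and NOLC1, a nucleolar chaperone of these particles, was at −1.5 (SE 0.12, edgeR adjusted p = 4.32e-09). Of 17 nonsense-mediated decay factors 10 were lower and 1, SMG9, higher (7 and 1 after the combination), and EIF4A3, a core component of the exon junction complex, was at −1.4 (SE 0.17, edgeR adjusted p = 1.38e-06). Median log2FC after DMSO was −0.89 for box C/D proteins, −0.41 for box H/ACA proteins, −0.7 for assembly factors, and −0.83 for decay factors, against 0 over all genes. In SK-LMS-1 no gene of these 6 lists passed with MK-0752 (lowest edgeR adjusted p = 0.283) or with the combination (lowest edgeR adjusted p = 0.907).

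Other markers moved with the line as well. All 4 proliferation markers were lower in SK-LMS-1 in both conditions, and their summed level was 1410 to 2470 CPM in SK-UT-1B and 408 to 714 CPM in SK-LMS-1. Of the smooth muscle markers, 5 were higher and 1 lower of 7 tested (of 8), and of the epithelial markers 4 were higher of 5 tested (of 6). Endothelial markers summed to at most 2.01 CPM in SK-UT-1B and 9.4 CPM in SK-LMS-1, with 1 of 3 higher, and leukocyte markers to at most 2.47 CPM, with 0 of 2 tested passing. The part of these in the members' differences was not tested.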

How the data were processed

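Stranded Qiaseq libraries depleted of ribosomal RNA were sequenced single-end from 12 samples of 2 cell lines. The authors trimmed reads with Trim Galore 0.3.7, aligned them to hg38 with STAR 2.7.9a, removed ribosomal reads with SortMeRNA, and deposited raw gene counts, not normalized, with their own comparisons made in DESeq2 1.42.0. The annotation behind the counts, their strand setting, and whether duplicate reads were removed are not given in the sources used here. Depth was 25250057 to 40709885 counts per library and limits members of a few CPM.

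Groups were taken from the sample titles. Counts were scaled by TMM, filtered with filterByExpr, and tested with edgeR 4.0.16 (quasi-likelihood, robust, R 4.3.3) in 1 fit of all 12 libraries in 6 groups, with Benjamini-Hochberg adjustment over 21114 genes. A gene passed at an adjusted p under 0.05 (two-sided), and counted as differentially expressed with an absolute log2FC of at least 1. The script was run on simulated counts without a line difference, with changes of at least that size planted in a single group. That run checks the code and does not show how smaller changes are recovered. All kept members are accounted for. Values in every library are given for GAS5, ZFAS1, DANCR, EPB41L4A-AS1, the 5 members of highest mean CPM, and the 5 members with the largest log2FC past the test in each direction between lines; others are named for an unadjusted p under 0.05. The members and lists were chosen with earlier results of these data known. The source does not say which DMSO set was the SK-LMS-1 control, so each treatment was set against the set of its own number. Alternatives were DESeq2, its size factors in edgeR, other count filters, only the libraries compared, all 4 SK-LMS-1 DMSO libraries as 1 group, a replicate block, and omission of each library. Exon positions and hosted snoRNAs came from GENCODE v44, start sites from RefSeq. Fold changes against a group at 0 used a floor of 3 counts per library, which covers counting error only. The sequence of 1 hosted snoRNA and 1 overlap of a member with another gene are not reported here.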

Additional observations from a re-analysis of the deposited data

How the results depend on the processing

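Of the counts of members past the test and the median log2FC of members, 288 values under the alternatives stayed within 1.5 times the count or within the spread between libraries, and 14 moved. DESeq2 called 2 members with the combination in SK-UT-1B, 1 with MK-0752, and 1 for the difference between the combination effects, where edgeR called 0. Limiting the fit to genes with a mean of at least 50 counts moved the median log2FC to 0.29 between lines after DMSO, to −0.00 for the difference between combination effects, and to 0.07 for MK-0752 minus the combination, by construction over fewer members. Taking all 4 SK-LMS-1 DMSO libraries as 1 group gave −0.02 and 0.20 for those last differences. By construction these are other contrasts. The DMSO libraries then drop out of MK-0752 minus the combination, and the other difference uses both DMSO sets instead of set 4. With each library left out in turn, 0 to 2 members passed with the combination in SK-UT-1B (median −0.13 to 0.00), 0 with MK-0752 (−0.08 to 0.07), 0 with the combination in SK-LMS-1 (−0.10 to 0.20), 15 to 19 between lines after DMSO (−0.25 to 0.02), 9 to 12 between lines after the combination (0.04 to 0.46), 0 between DMSO sets (−0.26 to −0.04), 0 to 1 for the difference between combination effects (−0.39 to −0.14), and 0 for MK-0752 minus the combination (−0.23 to 0.02). Single members were recomputed in the comparisons between lines that they had passed and in the other comparisons where they had an unadjusted p under 0.05. Of these values 857 kept direction and side of the threshold, 61 lost the call, 5 gained one, and 0 reversed. Calls gained by a member in any further comparison are not in these totals. Outside the comparisons between lines they were those of SNHG32 with the combination in SK-UT-1B and for the difference between combination effects, without SK-UT-1B combination library 3-3.

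The replicate numbers did not establish a pairing: deviations of same-numbered libraries in SK-LMS-1 DMSO set 4 and combination correlated at −0.012 over 21114 genes. A replicate block gave 17 members after DMSO and 10 after the combination between lines, and 0 in each other comparison. The block lost SNHG26 (adjusted p = 0.0592), SNHG9 (0.119), and SNHG20 (0.0534) after DMSO, and SNHG3 (0.129), SNHG8 (0.0745), and SNHG1 (0.0992) after the combination. Fitting only the libraries of the comparison gave 18 and 9, and lost SNHG9 (0.122) and SNHG20 (0.138) after DMSO, and SNHG3 (0.0883), SNHG8 (0.0978), SNHG32 (0.0626), and SNHG1 (0.0698) after the combination. Over all genes the DESeq2 Wald test called 774 with the combination in SK-UT-1B against 151 by edgeR, 296 against 77 with MK-0752, and 69 against 5 with the combination in SK-LMS-1. DESeq2's size factors left 20 and 13 members called between lines, 10 higher and 10 lower after DMSO and 7 and 6 after the combination. With 2 libraries a group, small changes of members under 20 CPM were not detectable.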
